A study of Mus musculus with 8 samples.

Results

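The genes of the cytosolic ribosomal proteins were followed in 2-cell mouse embryos sired by 3 kinds of males. Members were chosen by symbol: every Rpl, Rps or Rplp gene with a number, plus Rpsa, that had a probeset (a set of probes summarised as 1 value) carrying that symbol alone, with pseudogene symbols ending in -ps left out. This gave 57 of 14995 genes with such a probeset, of which 31 had Rpl symbols, 3 had Rplp symbols and 23 belonged to the small subunit. A gene was tested where its mean over the 8 arrays exceeded the 30th percentile of all probesets (log2 2.07), which 55 members passed among 11444 genes. The other members, Rplp2 and Rpl32l, had means of 1.97 and 1.73. A further 13 symbols of the family occurred only on probesets shared between several symbols and were not analysed here. RefSeq lists 55 of the 57 as protein coding and Rpl6l and Rps4l as pseudogenes.

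The 8 arrays each held RNA from 1 pool of embryos, which averaged 26 embryos. All mothers were C57BL/6 females given 5 IU of each of the hormones eCG and hCG, and embryos were collected by oviduct flushing 46 to 48 hours later, counted from hCG. The sires carried a KDM1A transgene (KDM1A TG, 3 arrays), were nonTG males, the littermates without the transgene (2 arrays), or were C57BL/6 males (3 arrays). The sample titles read TG3 and nonTG3 for the KDM1A TG and nonTG groups, and do not say what the 3 stands for. KDM1A, also known as LSD1, is a demethylase of histone H3. The sources used here name no promoter for the transgene, and the genotype of the embryos was not determined. The labels do not say whether pools came from different males or how they were processed in batches, so the p-values reflect the variation among these pools alone, possibly technical. In pooled embryos, fewer cells of a type and less RNA per cell cannot be told apart.

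Each ribosome contains a single copy of nearly every ribosomal protein, so the genes of the family are transcribed at high rates and their mRNAs are among the most abundant in growing cells. Their mRNAs usually begin with a 5′ terminal oligopyrimidine (TOP) tract, a C followed by a run of C and T, through which mTOR signalling adjusts their translation. The mouse 2-cell embryo carries ribosomes and mRNAs stored in the oocyte while its own genome becomes active, and ribosomal protein genes are among those transcribed at that time.

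Start-site sequences are shown for the 4 members with the smallest p in KDM1A TG against C57BL/6 that had a RefSeq promoter entry, and for 3 bright members with a TOP tract at the annotated start, chosen after their values were seen. Each runs 5′ to 3′ over 60 bases, 40 before the start of the RefSeq promoter entry and 20 from it, in GRCm38.p6, and capitals mark a TOP tract of C and at least 4 further pyrimidines within 10 bases of the start. The windows are chr5:115559427-115559486 (+) for Rplp0, chr7:99483690-99483749 (-) for Rps3, chr12:28635934-28635993 (-) for Rps7 and chr2:26910767-26910826 (+) for Rpl7a. The Rpl7a promoter entry starts downstream of the RefSeq gene record, which begins at position 26910685, so its window is not at the 5′ end of that record. For the added members they are chr4:86857348-86857407 (-) for Rps6, chr7:4792925-4792984 (+) for Rpl28 and chr17:33955646-33955705 (-) for Rps18.
Rplp0: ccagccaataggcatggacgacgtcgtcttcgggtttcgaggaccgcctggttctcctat
Rps3: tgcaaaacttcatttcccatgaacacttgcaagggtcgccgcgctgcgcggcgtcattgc
Rps7: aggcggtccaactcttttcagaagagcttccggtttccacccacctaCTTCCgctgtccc
Rpl7a: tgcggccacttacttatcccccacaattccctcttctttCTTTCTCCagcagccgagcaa
Rps6: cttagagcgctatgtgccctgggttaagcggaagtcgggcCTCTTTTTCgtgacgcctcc
Rpl28: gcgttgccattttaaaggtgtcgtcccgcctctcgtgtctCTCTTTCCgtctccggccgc
Rps18: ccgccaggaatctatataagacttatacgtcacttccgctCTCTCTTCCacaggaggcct

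RefSeq promoters (250 bases before and 50 from the start) were found for 42 tested members, as 48 promoters. A TOP tract began exactly at the annotated start in 9 of these 48 promoters (18.8%), against 242 of 10803 promoters of all genes tested (2.24%). With the tract allowed to begin up to 10 bases from the start, the shares were 54.2% and 31.4%. On either strand, the motif CCGGAAG, a core of ETS-family sites, occurred in 35.4% of member promoters and 14.2% of all promoters, and ATGGCG, a core of YY1 sites, in 31.2% and 13.4%. The pyrimidine-rich CTTTC occurred in 81.2% and 54.6%. The shares were 8.33% and 9.47% for TATAAA, the TATA box, and 8.33% and 9.28% for CACGTG, the E-box bound by MYC. These motifs were searched separately and may overlap, and a match describes only the letters in the window.

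The deposited log2 values over all probesets ran from 0.12 to 12.36, with array medians of 2.73 to 2.86. KDM1A TG arrays 1 and 3 had the widest values, with interquartile ranges of 2.38 and 2.60, against 1.87 to 2.09 on the other 6 arrays. Of all genes 76.3% passed the filter, as did 33 of 35 measured maternal oocyte genes and 28 of 33 measured 2-cell activation genes, so most markers of the labelled stage were above that level. All 18 measured oviduct epithelium markers, all 20 stromal and muscle markers and all 11 measured cumulus and granulosa cell markers passed it too. Kdm1a was not analysed here.

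Ribosomal protein genes were first compared between embryos of KDM1A TG sires and embryos of C57BL/6 sires. No member of the 55 passed at an adjusted p of 0.05 (limma, Benjamini-Hochberg over 11444 genes), where 0.725% of all genes did. At an unadjusted p of 0.05, 5 members were higher (12.1% of all genes were) and 0 lower (2.1% of all genes). The median log2 change of the members was 0.37, beside 0.18 over all genes, and 46 of 55 members lay above 0, where 64.9% of all genes did. The members spanned -0.61 to 0.93, with standard errors of 0.32 to 0.35, and the smallest adjusted p was 0.192. The smallest change among the 83 genes that did pass was 1.24 in size. The 95% interval excluded a doubling for 21 members (64.5% of all genes), so for the remaining members a doubling was not excluded. The median depended on single arrays: it was 0.57 without KDM1A TG array 2 and 0.23 without KDM1A TG array 1. It was 0.20 after quantile normalization, 0.12 after cyclic loess, 0.56 with array weights, 0.08 without KDM1A TG arrays 1 and 3, and -0.13 when the mean of the oviduct markers entered the fit as a covariate. Over all genes the median was 0.09 after quantile normalization, 0.07 after cyclic loess and 0.20 with array weights. Without KDM1A TG arrays 1 and 3 the all-gene median was 0.07, and with the covariate 0.06.

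**Figure D1:**
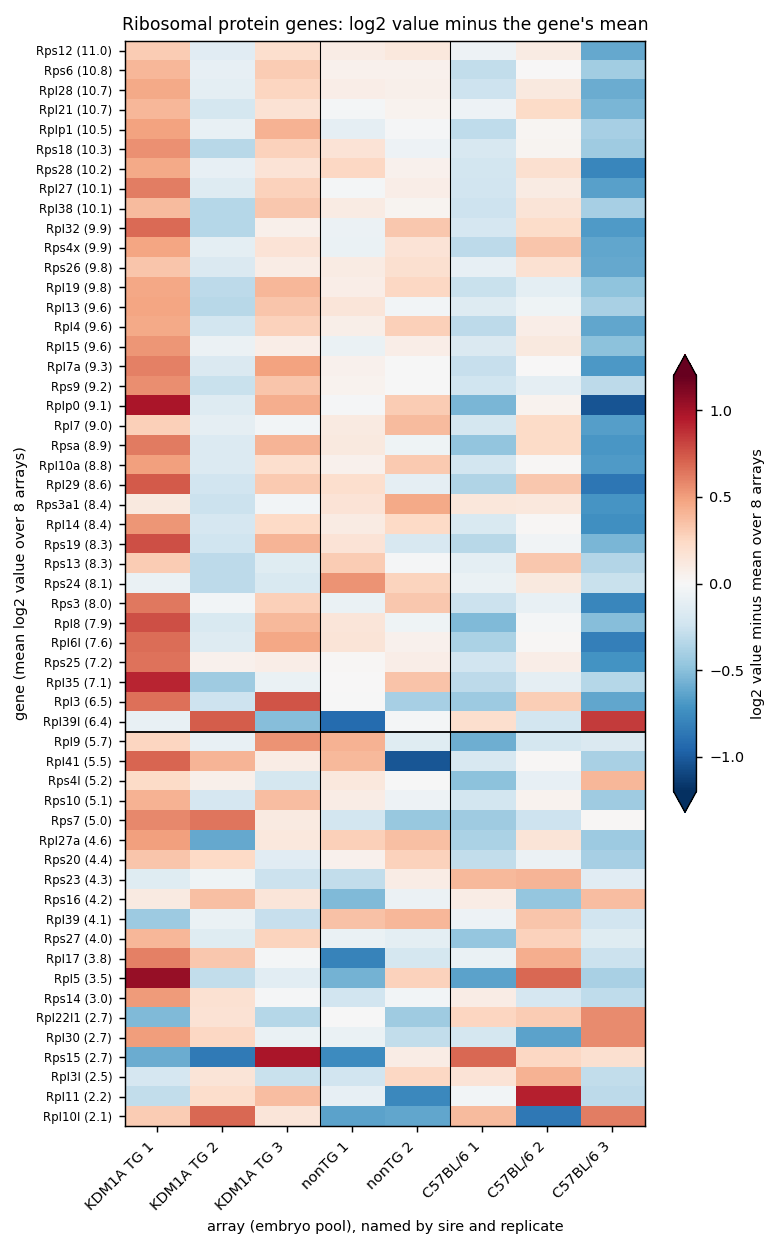
Log2 value of each of the 55 tested ribosomal protein genes minus its own mean over the 8 arrays (colour, log2 units), with genes ordered by mean value (in parentheses) and arrays grouped by sire. The horizontal line marks a mean of 6; above it, KDM1A TG array 1 is the highest array in 29 of 35 genes and C57BL/6 array 3 the lowest in 31 of 35.

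Embryos of nonTG sires (2 arrays) were then set against those of C57BL/6 sires. No member passed (0.131% of all genes did), and 0 members were higher and 0 lower at an unadjusted p of 0.05 (4.61% and 3.62% of all genes). The median change was 0.29, beside 0.04 over all genes, and 42 of 55 members lay above 0 (53.2% of all genes). The range was -0.74 to 0.66, with standard errors of 0.36 to 0.39 and a smallest adjusted p of 0.619. The interval excluded a doubling for 27 members (69.9% of all genes). Without C57BL/6 array 3 the median was 0.12, and without C57BL/6 array 2 it was 0.43. It was 0.17 after quantile normalization, 0.00 after cyclic loess and -0.21 in the fit that held the oviduct markers as covariate. Over all genes the median was 0.06, 0.03 and -0.07 in the same order. Both comparisons share the 3 C57BL/6 arrays, so their values are not independent of each other.

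KDM1A TG against nonTG sires compares transgenic males with littermates that lack the transgene. No member passed (0.0437% of all genes did), 3 members were higher at an unadjusted p of 0.05 (4.97% of all genes) and 0 lower (1.43% of all genes). The median change was 0.15, beside 0.16 over all genes, with 40 of 55 members above 0 (65.4% of all genes). The range was -0.64 to 1.01 and the smallest adjusted p was 0.632. The interval excluded a doubling for 39 members (62.0% of all genes). The median was 0.00 without KDM1A TG array 1, 0.10 without KDM1A TG array 3 and 0.31 without KDM1A TG array 2. It was 0.07 after quantile normalization, 0.13 after cyclic loess, 0.30 with array weights, 0.14 with the oviduct covariate and -0.22 without KDM1A TG arrays 1 and 3, which leaves 1 KDM1A TG array. Over all genes the median was 0.05, 0.05, 0.18, 0.15 and 0.00 in the same order.

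The brighter members shared a common order of arrays, in which the sire groups overlapped. A split at a mean log2 value of 6, chosen after the values were seen, put 35 tested members above it and 20 at or below it. Among the 35, KDM1A TG array 1 was the highest array in 29, where it was the highest in 15.9% of all genes. C57BL/6 array 3 was the lowest in 31 of the 35, where it was the lowest in 19.1% of all genes. The median of a bright member's log2 value minus its own mean was 0.49, -0.18 and 0.27 on the KDM1A TG arrays 1 to 3. It was 0.08 and 0.06 on the nonTG arrays, and -0.24, 0.08 and -0.62 on the C57BL/6 arrays. KDM1A TG array 2 lay below C57BL/6 array 2 and below both nonTG arrays. The median SD of a bright member was 0.37 within the KDM1A TG group, 0.14 within nonTG and 0.36 within C57BL/6, beside 0.32, 0.29 and 0.33 for all genes.

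The median change of the 35 bright members was 0.44 in KDM1A TG against C57BL/6, 0.34 in nonTG against C57BL/6 and 0.13 in KDM1A TG against nonTG. For the 20 dimmer members the medians were 0.28, -0.09 and 0.23 in the same order of comparisons. Other lists shared the bright members' pattern in part. Of 58 mitochondrial ribosomal protein genes, which build the separate ribosome of the mitochondrion, 41 were highest on KDM1A TG array 1 and 31 lowest on C57BL/6 array 3. Of 18 oviduct epithelium markers, 9 were highest on KDM1A TG array 3 and 6 on KDM1A TG array 1, and 13 were lowest on C57BL/6 array 3. Over all genes, KDM1A TG array 3 was the highest in 26.1%, KDM1A TG array 1 the highest in 15.9% and C57BL/6 array 3 the lowest in 19.1%. The mean log2 value of these 18 markers ran from 5.17 to 5.87 on the KDM1A TG arrays, from 5.59 to 5.62 on the nonTG arrays and from 4.63 to 5.32 on the C57BL/6 arrays. Stromal and muscle markers averaged 4.34 to 5.88 in KDM1A TG, 3.87 to 5.31 in nonTG and 3.62 to 4.34 in C57BL/6 arrays. None of the 18 or 20 markers was under the filter level. All 18 oviduct markers lay above 0 in KDM1A TG and in nonTG against C57BL/6. The covariate fits above therefore cannot tell oviduct cells and sire apart. The part of oviduct, stromal and muscle cells in the ribosomal protein values was not tested. In ribosome biogenesis genes C57BL/6 array 3 was the highest in 26 of 62, where it was the highest in 13.2% of all genes. In maternal genes C57BL/6 arrays 1 and 3 were each the highest in 10 of 33, and KDM1A TG array 2 in 8. Over all genes these arrays were the highest in 8.86%, 13.2% and 9.17%, in the same order.

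**Figure D2:**
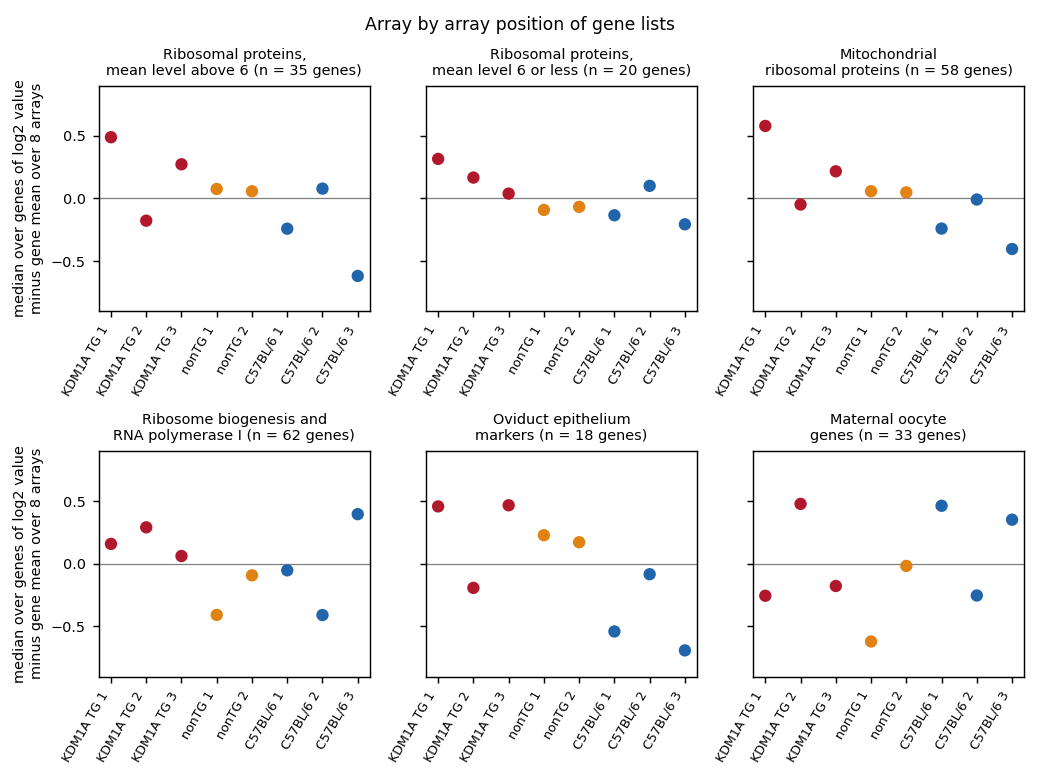
Median over the genes of each list of the log2 value minus the gene's own mean over 8 arrays (vertical axis, log2 units), with 1 point per array for KDM1A TG (red), nonTG (orange) and C57BL/6 (blue) sires. Bright ribosomal protein genes run from 0.49 on KDM1A TG array 1 to -0.62 on C57BL/6 array 3, with KDM1A TG array 2 at -0.18.

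The P stalk of the large subunit, which recruits the elongation factors, is built by Rplp0, Rplp1 and Rplp2. Rplp0, its anchor, had log2 values of 10.10, 8.96 and 9.56 on the KDM1A TG arrays, 9.10 and 9.42 on the nonTG arrays, and 8.57, 9.16 and 8.08 on the C57BL/6 arrays. KDM1A TG array 2 lay below C57BL/6 array 2, so those groups overlapped. Its log2 change in KDM1A TG against C57BL/6 was 0.93 (SE 0.34, 95% interval 0.27 to 1.60, adjusted p = 0.192 by limma), the highest of the 55 members. Against C57BL/6 the nonTG change was 0.66 (SE 0.38, adjusted p = 0.663 by limma). A second Rplp0 probeset, with a mean of 3.80 beside 9.12, gave -0.46 and -0.12 in the same comparisons. Rplp1, which binds Rplp0 as a dimer with Rplp2, had 10.95, 10.37 and 10.88 in KDM1A TG, 10.35 and 10.44 in nonTG, and 10.15, 10.48 and 10.06 in C57BL/6 arrays, again with 1 C57BL/6 array above 1 KDM1A TG array. Its change was 0.50 in KDM1A TG against C57BL/6 (SE 0.32, adjusted p = 0.463 by limma). Rplp2 was not tested.

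Rpl5 and Rpl11 bind the 5S ribosomal RNA and, outside the ribosome, can hold the p53 ligase Mdm2. Rpl5 had 4.57, 3.24 and 3.40 in KDM1A TG, 2.96 and 3.80 in nonTG, and 2.89, 4.22 and 3.13 in C57BL/6 arrays. It was highest on KDM1A TG array 1 and lowest on C57BL/6 array 1, but the groups overlapped widely. Its change in KDM1A TG against C57BL/6 was 0.32 (SE 0.35, adjusted p = 0.650 by limma). Rpl11 had 1.93, 2.44 and 2.60 in KDM1A TG, 2.13 and 1.46 in nonTG, and 2.20, 3.17 and 1.91 in C57BL/6 arrays, close to the filter level. Its changes were -0.10 in KDM1A TG against C57BL/6 and -0.64 in nonTG against C57BL/6, with adjusted p values of 0.892 and 0.676 (limma).

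In the list of p53 targets and the nucleolar stress axis, 2 of 14 tested genes rose in KDM1A TG against C57BL/6 and 0 fell, where 0.655% of all genes rose and 0.0699% fell. Ccng1, a cyclin G gene induced by p53, rose by 1.68 (adjusted p = 0.00297 by limma), and Btg2, an antiproliferative p53 target, by 1.54 (adjusted p = 0.00834). In nonTG against C57BL/6 (0.0699% of all genes rose and 0.0612% fell) and in KDM1A TG against nonTG (0.035% and 0.00874%), 0 of the 14 passed. In nonTG against C57BL/6, Ccng1 and Btg2 had changes of 1.45 and 1.22 (adjusted p = 0.0709 and 0.183 by limma). For both genes, both nonTG arrays lay above all C57BL/6 arrays, so the higher values were not particular to the KDM1A TG sires. The 2 calls in KDM1A TG against C57BL/6 were lost without C57BL/6 array 3 (adjusted p = 0.0714 for each). They were lost without KDM1A TG array 3 too (0.107 for Ccng1 and 0.341 for Btg2), and Btg2 also without C57BL/6 array 1 (0.0964, limma throughout). They were also lost with quantile scaling (0.156 and 0.182), with cyclic loess (0.167 and 0.202), over all probesets (0.0549 and 0.07) and with the oviduct covariate (0.787 for each). The changes themselves stayed above 0: Ccng1 had 1.43, 1.31 and 1.68 with quantile scaling, cyclic loess and all probesets, and Btg2 had 1.31, 1.24 and 1.54. With the oviduct covariate they were 0.98 for Ccng1 and 0.91 for Btg2.

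Among the other proteins of the large subunit, Rpl8, a core protein near the peptidyl transferase centre, had 8.66, 7.70 and 8.27 in KDM1A TG, 8.03 and 7.83 in nonTG, and 7.35, 7.85 and 7.36 in C57BL/6 arrays. Of the KDM1A TG arrays, only array 2 lay within the C57BL/6 range. Its change in KDM1A TG against C57BL/6 was 0.68 (SE 0.33, adjusted p = 0.333 by limma). Rpl3, which reaches towards the peptidyl transferase centre, had 7.19, 6.28 and 7.28 in KDM1A TG, 6.52 and 6.13 in nonTG, and 6.09, 6.82 and 5.90 in C57BL/6 arrays. Here too KDM1A TG array 2 lay within the C57BL/6 range, and the change was 0.65 (SE 0.33, adjusted p = 0.363 by limma). Rpl6l, annotated as a pseudogene of Rpl6, had 8.26, 7.44 and 8.06 in KDM1A TG, 7.74 and 7.64 in nonTG, and 7.22, 7.60 and 6.77 in C57BL/6 arrays. Its change was 0.72 (SE 0.33, adjusted p = 0.310 by limma), with overlapping arrays, while both nonTG arrays lay above all C57BL/6 arrays.

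Rpl41, the smallest ribosomal protein, had 6.17, 5.88 and 5.56 in KDM1A TG, 5.86 and 4.44 in nonTG, and 5.28, 5.49 and 5.08 in C57BL/6 arrays. All 3 KDM1A TG arrays lay above the C57BL/6 arrays, and nonTG array 2 lay below every other array. The change was 0.59 against C57BL/6 (adjusted p = 0.411 by limma) and 0.72 against nonTG (adjusted p = 0.787 by limma). In KDM1A TG against C57BL/6, arrays did not overlap with KDM1A TG higher for 4 members, Rpl41, Rpl9, Rps3 and Rps7 (14.5% of all genes), and with KDM1A TG lower for 1, Rpl22l1 (5.34% of all genes). For nonTG against C57BL/6 these counts were 15 (15.4% of all genes) and 2 (9.41%), and for KDM1A TG against nonTG they were 6 (16.0%) and 3 (6.38%).

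Around the exit tunnel, through which the new peptide leaves the large subunit, 5 of the 8 listed genes were measured. In KDM1A TG against C57BL/6, 4 of them lay above 0 (median 0.28). Of all 55 members 46 did (median 0.37), and 64.9% of all genes. Rpl39, a small protein lining the tunnel, had 3.68, 4.04 and 3.84 in KDM1A TG, 4.46 and 4.51 in nonTG, and 4.05, 4.45 and 3.88 in C57BL/6 arrays. Both nonTG arrays lay above all KDM1A TG arrays and above all C57BL/6 arrays. The change in KDM1A TG against nonTG was -0.64 (SE 0.36, adjusted p = 0.820 by limma), the lowest of the 55 members in that comparison. Rpl17, at the tunnel exit, had 4.44, 4.16 and 3.81 in KDM1A TG, 3.03 and 3.62 in nonTG, and 3.76, 4.27 and 3.57 in C57BL/6 arrays. The nonTG arrays were below all KDM1A TG arrays, with a change of 0.81 in KDM1A TG against nonTG (SE 0.37, adjusted p = 0.772 by limma).

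In the small subunit, 7 of the 11 listed genes of the head and mRNA entry were measured. Of these, 6 lay above 0 in KDM1A TG against C57BL/6, with a median of 0.40. Among all 55 members 46 did (median 0.37), and 64.9% of all genes. Rps3, which lines the mRNA entry channel, had 8.63, 7.96 and 8.28 in KDM1A TG, 7.91 and 8.32 in nonTG, and 7.73, 7.90 and 7.21 in C57BL/6 arrays. All 3 KDM1A TG arrays and both nonTG arrays lay above the C57BL/6 arrays. The change in KDM1A TG against C57BL/6 was 0.67 (SE 0.33, 95% interval 0.02 to 1.32, adjusted p = 0.339 by limma). Rps15, a head protein near the decoding site, differed more between arrays of 1 group than between groups, with 2.06, 1.81 and 3.64 in KDM1A TG, 1.91 and 2.75 in nonTG, and 3.35, 2.91 and 2.85 in C57BL/6 arrays. KDM1A TG array 3 was its highest array and KDM1A TG array 2 its lowest. Its mean of 2.66 lay below the array medians over all probesets (2.73 to 2.86). Its change was -0.53 in KDM1A TG against C57BL/6 (SE 0.35, adjusted p = 0.471 by limma) and -0.71 in nonTG against C57BL/6 (adjusted p = 0.653 by limma).

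Rps7, a small-subunit protein needed for processing of the 18S ribosomal RNA, had 5.54, 5.60 and 5.07 in KDM1A TG, 4.74 and 4.50 in nonTG, and 4.54, 4.71 and 4.98 in C57BL/6 arrays. It was the only named member whose 3 KDM1A TG arrays lay above all 5 other arrays. Its change was 0.66 against C57BL/6 (SE 0.32, adjusted p = 0.339 by limma) and 0.78 against nonTG (SE 0.36, adjusted p = 0.772 by limma). Rps24, also needed in 18S processing, had 7.996, 7.757 and 7.894 in KDM1A TG, 8.62 and 8.34 in nonTG, and 7.99, 8.19 and 7.81 in C57BL/6 arrays. Both nonTG arrays lay above all other arrays, and its change in KDM1A TG against nonTG was -0.59 (SE 0.36, adjusted p = 0.838 by limma). A second Rps24 probeset with a mean of 4.19 gave 0.59 in that comparison. In Diamond-Blackfan anaemia, human mutations of ribosomal protein genes impair red cell formation. Among its 12 measured genes, 10 lay above 0 in KDM1A TG against C57BL/6, with a median of 0.38. This was close to all 55 members, of which 46 lay above 0 (median 0.37), beside 64.9% of all genes.

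**Figure D3:**
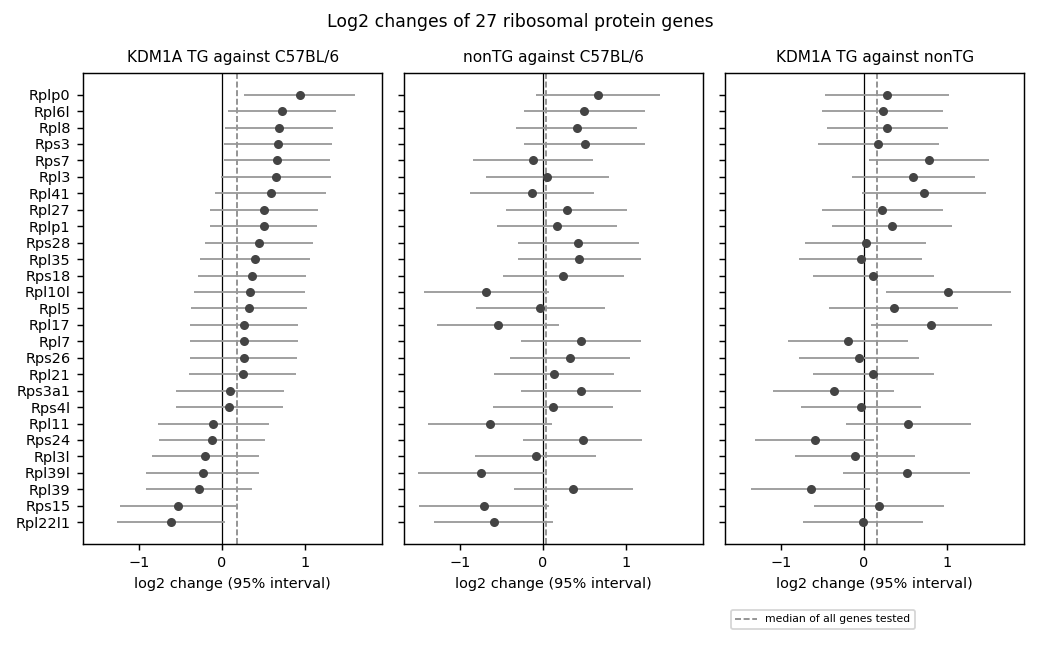
Log2 change (points) with its 95% interval (lines) of 27 ribosomal protein genes in the 3 comparisons, ordered by the change in KDM1A TG against C57BL/6. The dashed line is the median of all 11444 genes, at 0.18, 0.04 and 0.16; none of the 27 genes passed after adjustment.

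Paralogs of ribosomal proteins, some of which replace the usual protein in particular cell types, were measured for 5 genes. These include Rps4l, which is not annotated as protein coding. The median changes of the 5 genes were -0.20 in KDM1A TG against C57BL/6, -0.59 in nonTG against C57BL/6 and -0.02 in KDM1A TG against nonTG, with 0 passing in each. Rpl22l1, the paralog of Rpl22, had 2.20, 2.91 and 2.39 in KDM1A TG, 2.73 and 2.31 in nonTG, and 2.99, 3.04 and 3.31 in C57BL/6 arrays. Every KDM1A TG and nonTG array lay below every C57BL/6 array. Rpl22l1 was a dim member, however. It had a mean of 2.73, beside array medians of 2.73 to 2.86 over all probesets and a filter level of 2.07. Its change of -0.61 in KDM1A TG against C57BL/6 was the lowest of the members (SE 0.32, 95% interval -1.26 to 0.03, adjusted p = 0.377 by limma), and the nonTG change was -0.59 (adjusted p = 0.682 by limma).

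Rpl39l, a paralog of Rpl39 known from the testis, had 6.29, 7.10 and 5.87 in KDM1A TG, 5.46 and 6.36 in nonTG, and 6.58, 6.15 and 7.22 in C57BL/6 arrays. Unlike the other bright members, it was highest on C57BL/6 array 3. Its change in nonTG against C57BL/6 was -0.74 (SE 0.38, adjusted p = 0.619 by limma), the lowest of the members in that comparison. Rpl10l, the autosomal paralog of Rpl10 used in male germ cells, had 2.40, 2.79 and 2.23 in KDM1A TG, 1.45 and 1.47 in nonTG, and 2.48, 1.24 and 2.70 in C57BL/6 arrays. Both nonTG arrays lay below all KDM1A TG arrays. Its change in KDM1A TG against nonTG was 1.01 (SE 0.38, adjusted p = 0.632 by limma), the highest of the members, with a mean of 2.09 that lay just above the filter level of 2.07. Rpl3l, the striated-muscle paralog of Rpl3, ran from 2.22 to 2.65 in KDM1A TG, 2.26 to 2.73 in nonTG and 2.19 to 2.91 in C57BL/6 arrays, with a change of -0.20 in KDM1A TG against C57BL/6. Its mean of 2.49 was low too. Rps4l, annotated as a transcribed pseudogene, ran from 4.96 to 5.40, 5.17 to 5.30 and 4.68 to 5.57 in the same groups, with a change of 0.09.

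Ribosomal protein genes have many processed copies in the mouse genome, and their probesets can bind RNA from those copies. Of the 57 members, 18 had several single-symbol probesets, and for 12 of them another probeset differed in sign in at least 1 comparison. These were Rpl21, Rpl27, Rpl3, Rpl35, Rpl7, Rplp0, Rplp1, Rps18, Rps24, Rps26, Rps28 and Rps3a1. For example, Rpl35 had a change of 0.40 in KDM1A TG against C57BL/6 on its brighter probeset, with a mean of 7.11, and -0.51 on the other, with a mean of 2.17. Only 5 of the 21 other probesets had a mean above 6, and among these the largest gap between changes of the same gene was 0.16 in KDM1A TG against C57BL/6. The pair for Rps19 held identical values, and counts as 1 measurement. The 8 tested pseudogene probesets had a median change of 0.11 in KDM1A TG against C57BL/6, beside 0.18 over all genes. Of them 5 lay above 0, where 64.9% of all genes did. Only 1 of the 8 passed, where 0.725% of all genes did: Rps19-ps3 rose by 1.71 (SE 0.35, adjusted p = 0.00431 by limma). Its log2 values were 5.30, 4.14 and 3.97 in KDM1A TG, 4.08 and 2.63 in nonTG, and 3.102, 2.938 and 2.233 in C57BL/6 arrays. All 3 KDM1A TG arrays lay above all C57BL/6 arrays, and nonTG array 2 lay within the C57BL/6 range. The call was lost without KDM1A TG array 1 (adjusted p = 0.117 by limma), without C57BL/6 array 3 (0.0862), with quantile scaling (0.166), with cyclic loess (0.167), over all probesets (0.0866) and with the oviduct covariate (0.787). Its change under these settings was 1.30, 1.45, 1.62, 1.57, 1.71 and 1.28 in the same order. Rps19 itself had a change of 0.62 (adjusted p = 0.374 by limma).

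In the lists of initiation factors, of elongation and termination factors and of other TOP genes, no tested gene passed in any of the 3 comparisons. The 29 measured initiation factors had a median change of 0.59 in KDM1A TG against C57BL/6, beside 0.18 over all genes. Of the 29 factors, 28 lay above 0, where 64.9% of all genes did. Eif2b2, a subunit of the exchange factor of eIF2, had the smallest p of these, with a change of 1.18 (adjusted p = 0.0536 by limma). The 12 elongation and termination factors had a median of 0.34. The 17 other TOP mRNAs and TOP regulators had a median of 0.47, with 17 above 0 (64.9% of all genes). Abce1 had the smallest p of the elongation and termination factors, with a change of 0.97 (adjusted p = 0.145 by limma). Eif4b had the smallest p of the other TOP genes, with 0.84 (adjusted p = 0.228 by limma). Next in both lists, Eef2, the translocation factor, and Eef1g, a subunit of the EF1 complex, had changes of 0.76 and 0.80 (adjusted p = 0.283 and 0.264 by limma). Fau, whose product carries the small-subunit protein eS30, had 0.38 (adjusted p = 0.565 by limma).

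For the 58 mitochondrial ribosomal protein genes the median change in KDM1A TG against C57BL/6 was 0.50, and for the 62 ribosome biogenesis and RNA polymerase I genes it was 0.18. In nonTG against C57BL/6 these medians were 0.28 and -0.27, and in KDM1A TG against nonTG 0.19 and 0.40. Nop56, a core protein of box C/D snoRNPs, had a change of -1.07 in KDM1A TG against C57BL/6 (adjusted p = 0.0958 by limma). Its values were 1.81, 2.17 and 2.16 in KDM1A TG, 2.39 and 2.72 in nonTG, and 3.31, 2.81 and 3.23 in C57BL/6 arrays. The KDM1A TG values thus lay close to the filter level of 2.07. Of the 62 biogenesis genes 45 lay above 0 in that comparison, among them Ddx47 (0.89) and Rrp7a (0.88). Mrpl36, of the mitochondrial large subunit, had a change of 1.03 (adjusted p = 0.122 by limma).

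**Figure D4:**
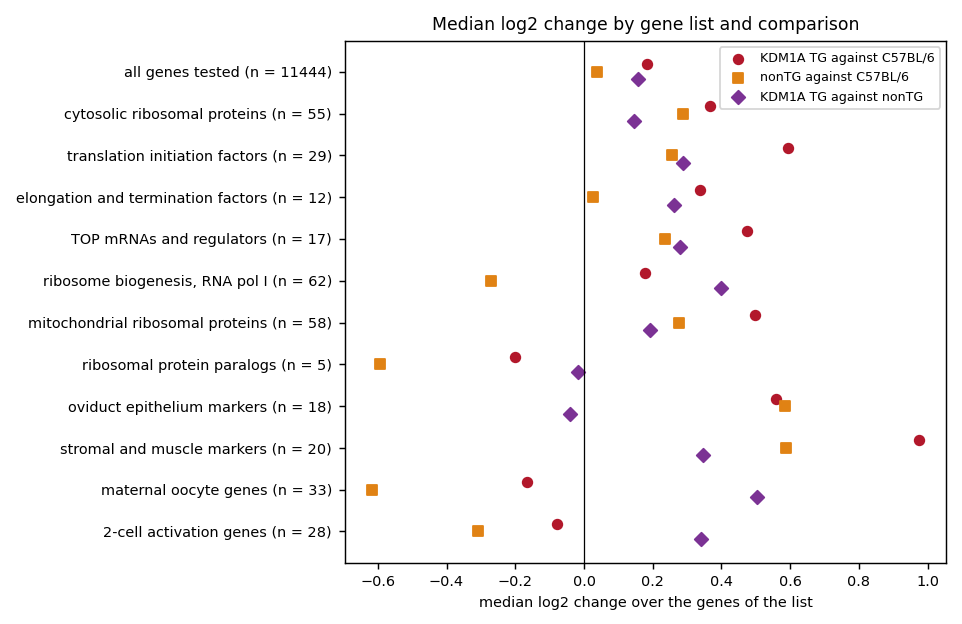
Median log2 change over the genes of each list (horizontal axis) in KDM1A TG against C57BL/6 (red), nonTG against C57BL/6 (orange) and KDM1A TG against nonTG (purple), with the number of genes tested in parentheses. Cytosolic ribosomal proteins stand at 0.37, 0.29 and 0.15, beside 0.18, 0.04 and 0.16 over all genes.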

How the data were processed

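The authors deposited log2 values per probeset for 8 arrays; per the submitters' processing notes, R 3.1.0, oligo, RMA and limma were used, with no role given for each. The genome build, the annotation and any filter were not given in the sources used here. Of 22961 probesets, 15745 carried 1 symbol. The brightest of a symbol by its mean over the 8 columns stood for the gene, and 11444 genes above the 30th percentile of all probesets entered a linear model (lmFit, then eBayes) in limma 3.58.1 under R 4.3.3. All 8 arrays share 1 estimate of the spread. Tests of the 3 contrasts were two-sided, and p-values were adjusted by Benjamini-Hochberg over all genes, with 0.05 as the threshold, and intervals are 95%. Arrays of only 3, 2 and 3 per group limit the precision.

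The members, the gene lists and the tests were chosen with earlier results of these data known. Members named with values are the 6 with the smallest p and the highest and lowest change in each comparison, those of the P stalk, the 5S particle and the paralogs, and those whose probesets differ in sign; of other lists at most 3 genes by smallest p. The mean of 6 that splits the members and the counts of highest and lowest arrays were chosen after the values were seen. The Rps19-ps3 values were taken for its pass, and those of Rps19 as its parent gene after they were seen. Abce1, Eif4b, Eef2, Eef1g and Fau were taken under the list rule.

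Replicate numbers come from the titles and nothing in the labels says that they pair samples. The correlations of same-numbered arrays' deviations from the group means ran from -0.38 to 0.18, so they were not treated as pairs.

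The fit was tested on simulated data with known changes under 2 noise models. It estimated the changes without bias under both, and recovered fewer of them with each gene's own SD as noise than with the moderated SD. The first version of this check required a recovery rate that the run with own SDs did not reach; that requirement was replaced by checks of estimate, sign and false calls, and both runs are kept.

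Alternatives covered array weights, scaling, the replicate number as a block, the filter, the choice of probeset, the variance model, an oviduct marker covariate, fits of the compared groups alone and leaving out arrays. Start-site sequences are RefSeq's for GRCm38.p6.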

Additional observations from a re-analysis of the deposited data

How the results depend on the processing

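The count of ribosomal protein genes that passed stayed at 0 in all 3 comparisons under every alternative run except array weights in KDM1A TG against C57BL/6, where 10 members passed: Rpl29, Rpl3, Rpl5, Rpl6l, Rpl7a, Rpl8, Rplp0, Rps19, Rps3 and Rpsa (adjusted p from 0.00253 to 0.0463 by limma). In that fit 1694 genes of all 11444 passed, against 83 without weights, and the weights were 2.49, 0.53 and 1.07 for KDM1A TG, 0.81 and 0.81 for nonTG, and 2.02, 0.72 and 0.75 for C57BL/6 arrays; the cause was not tested. Leaving out each array in turn gave medians of 0.23 to 0.57 in KDM1A TG against C57BL/6, 0.12 to 0.43 in nonTG against C57BL/6 and 0.00 to 0.31 in KDM1A TG against nonTG, with 0 members passing throughout. Medians moved to 0.08 and -0.22 in KDM1A TG against C57BL/6 and against nonTG without KDM1A TG arrays 1 and 3, to -0.13 and -0.21 in KDM1A TG and nonTG against C57BL/6 with the oviduct covariate, and to 0.00 in nonTG against C57BL/6 with cyclic loess. Over all genes these medians were 0.07, 0.00, 0.06, -0.07 and 0.03 in the same order. With cyclic loess the median member level was 8.29 on KDM1A TG array 1, 7.99 on KDM1A TG array 3 and 7.97 on C57BL/6 array 3, beside 8.62, 8.27 and 7.67 as deposited. With replicate number as a block (replicate block), 0 members passed and the medians were 0.37, 0.22 and 0.19 in the order KDM1A TG against C57BL/6, nonTG against C57BL/6 and KDM1A TG against nonTG; the numbers are not known to pair samples. Of 1767 changes of the 27 named members recomputed over 22 settings and 3 comparisons, 1645 stayed within a standard error of the reported value without passing. A further 116 moved by a standard error or more and 6 passed, all with array weights. Counted separately, 134 changed sign, some of them among the 1645. Several settings cannot move a change: the filters, the variance models, fits of the compared groups alone and leaving out an array of the third group. The 1645 includes these, so it does not measure stability. Over all genes, the count in KDM1A TG against C57BL/6 was 5 with quantile normalization or cyclic loess, 151 with median centring, 138 without a filter, 53 at the 50th percentile, 154 with robust eBayes, 7 over all probesets, 1 without KDM1A TG arrays 1 and 3 and 0 with the covariate. In nonTG against C57BL/6 the 15 genes became 0 over all probesets to 47 with array weights, and in KDM1A TG against nonTG the 5 became 2 to 8, array leave-outs aside. In KDM1A TG against C57BL/6, leaving out a KDM1A TG array gave 64 (array 1), 228 (array 2) or 9 genes (array 3). Leaving out a C57BL/6 array gave 33 (array 1), 254 (array 2) or 30 genes (array 3). With the same arrays left out in turn, 4 to 80 genes passed in nonTG against C57BL/6 and 2 to 8 in KDM1A TG against nonTG. Leaving out a nonTG array leaves 1 array in that group, so those counts are not given. Without KDM1A TG arrays 1 and 3, where the 1 array left is assumed to vary like the other groups, Ccng1, Btg2 and Rps19-ps3 had changes of 1.35, 1.26 and 1.38, each with an adjusted p of 0.998. The 3, 2 and 3 arrays and the lack of background signals limit what could be detected.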
